A study of Danio rerio with 8 samples.

Results

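A set of 10 genes that mark macrophages or macrophage activation was followed in the adult zebrafish brain, namely *ptprc*, *mpeg1.1*, *mfap4*, *p2ry12*, *marco*, *havcr1*, *gpnmb*, *cd83*, *lgals3bpb* and *spp1*. They are 10 of the 22871 genes with raw counts and were picked by symbol because of how *psap* KO brains differed from WT brains in these same libraries, so their levels and fold changes are given as a description with no test. The study made a CRISPR-Cas9 model of combined saposin deficiency, in which the precursor of the 4 saposins, cofactors of lysosomal sphingolipid breakdown, is lost. Total RNA depleted of ribosomal RNA was sequenced from 4 pools of WT siblings and 4 pools of *psap* KO fish, each pool holding the RNA of 3 whole brains taken at 4 months post-fertilization (mpf). All fish were of the TuAB background and of both sexes, came from heterozygous parents and received no treatment. The KO fish were homozygous for 1 insertion allele of *psap*, *psap*+63/+63, carried by every cell of the body, so the model is a single line and not a microglia-specific loss. WT and KO fish were kept in separate tanks once genotyped, and tank and genotype cannot be told apart.

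Microglia are the resident macrophages of the brain. They clear dying cells and myelin debris, and their lysosomes degrade what they take up. In mammals, resting microglia are recognised by surface receptors such as P2RY12, and microglia that meet lipid debris or storage material are known to lower such receptors and to turn on a lipid-associated program that includes GPNMB, SPP1 and apolipoprotein E. The 10 genes were therefore read in 3 groups. These were identity genes (*ptprc*, *mpeg1.1*, *mfap4*, *p2ry12*), uptake receptors (*marco*, *havcr1*) and activation genes (*gpnmb*, *cd83*, *lgals3bpb*, *spp1*). The grouping is a choice made here. *lgals3bpb* was already at 39.2 CPM on average in WT brains, and the contrast is also given with it and *havcr1* counted as identity genes. In RNA from whole brain, a higher level can come from more macrophages or from more RNA per macrophage, and the counts cannot tell these apart.

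The libraries held 15332163 to 25127578 counts, and levels are in CPM, the counts scaled to a common library size, here with TMM factors that also correct for library composition. *psap* itself was at 342 to 415 CPM in WT against 381 to 450 CPM in *psap* KO libraries, so its level does not mark the genotype of this insertion line. Counts of same-genotype libraries differed beyond sampling noise, and the chi-square divided by its degrees of freedom was 17.1 to 28.8 for pairs with *psap* KO replicate 4 against 5.12 to 13.6 for the remaining pairs. *psap* KO replicate 4 therefore stood apart, and fold changes of the 10 genes are also given without it. WT replicate 1 was high in skeletal muscle RNA, with the summed level of 11 muscle markers at 113 CPM against 5.09 to 8.60 CPM in the 7 other libraries. Neuronal markers, which check the tissue, summed to 6080 to 6320 CPM in WT against 4270 to 4560 CPM in *psap* KO. Over all 21140 genes tested with edgeR's quasi-likelihood test, 22.3% were higher and 18.5% lower in *psap* KO at an adjusted p under 0.05, and the median log2 fold change was 0.02.

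All 10 genes had a higher mean level in *psap* KO brains. The 9 that passed the filter on low counts had log2 fold changes from 1.72 to 6.80, with a median of 3.39. In these 9, every *psap* KO library lay above every WT library, which was also the case for 21.9% of all tested genes, and all 9 were under the adjusted p threshold, against 22.3% of all genes. Since the genes were chosen on this contrast, nothing is read from either count. *spp1* did not pass the filter, and *cd83* and *spp1* were over its count minimum in no WT library, so *cd83* entered the fit through its *psap* KO libraries alone. The identity genes had log2 fold changes of 1.72 to 2.66, the uptake receptors of 3.39 to 4.2 and the 3 tested activation genes of 3.53 (*lgals3bpb*) to 6.80.

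**Figure D1:**
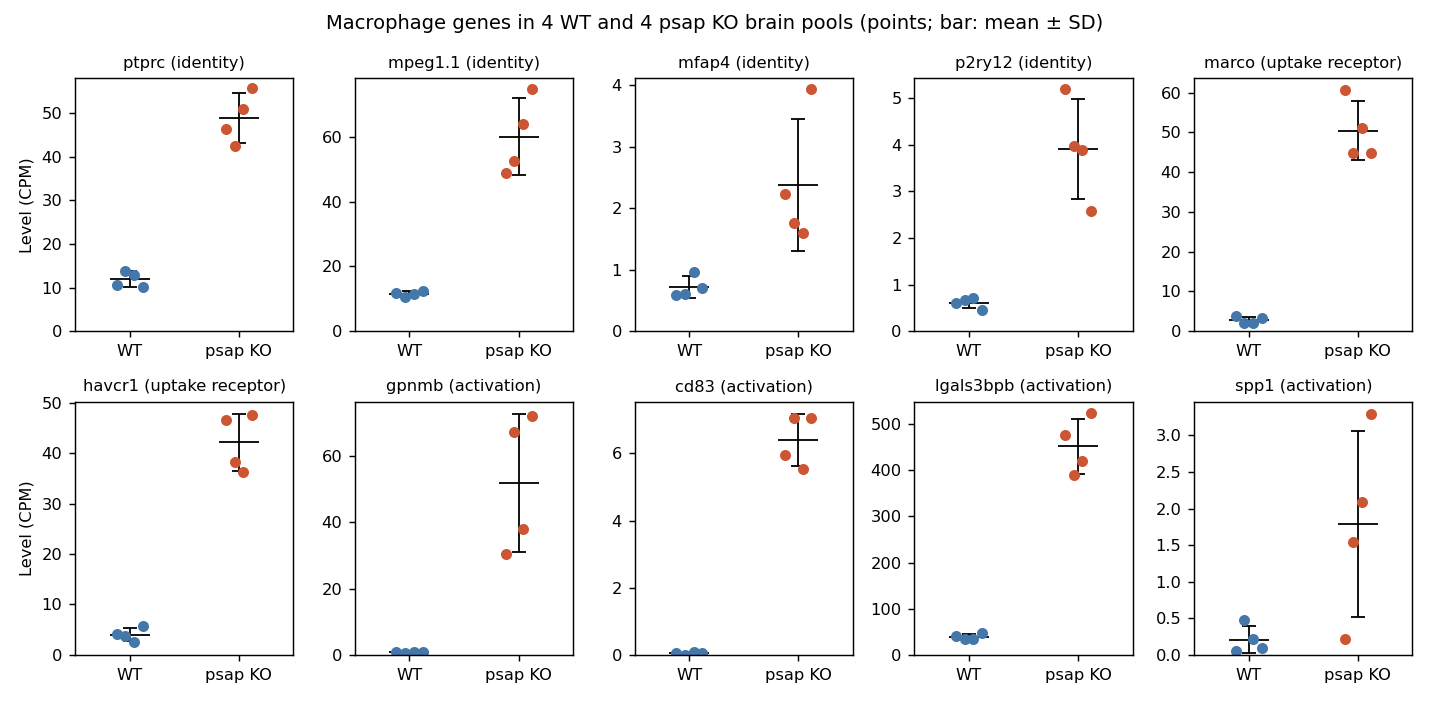
Level in CPM (y axis, linear and from 0, with its own scale for each gene) of the 10 macrophage genes in 4 WT (blue) and 4 *psap* KO (red) brain pools; points are libraries and bars are mean ± SD. The groups are apart for every gene except *spp1*, whose lowest *psap* KO library, at 0.223 CPM, lies among the WT libraries.

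*ptprc* (ENSDARG00000071437, chromosome 22, 22977268 to 23067859, minus strand) encodes CD45, a phosphatase on the surface of leukocytes, and so marks leukocytes of any kind. It was at 10.6, 13.9, 13 and 10.2 CPM in WT replicates 1 to 4 and at 46.4, 42.5, 51 and 55.7 CPM in *psap* KO replicates 1 to 4. The groups were well apart, and both were tight. The mean went from 11.9 ± 1.81 to 48.9 ± 5.72 CPM (SD, n = 4) and the log2 fold change was 2.04 (SE 0.12), or 1.97 without *psap* KO replicate 4. Some genes on marker lists of other leukocytes were higher too. Of 7 tested neutrophil markers 4 (*mmp9*, *csf3r*, *lect2l* and *srgn*) were higher in *psap* KO (57.1%, against 22.3% of all genes). The granule genes *mpx* (log2 fold change 0.30, adjusted p = 0.42) and *npsn* (0.36, adjusted p = 0.56) and the mast cell protease gene *cpa5* (-1.19, adjusted p = 0.056, edgeR) did not pass. All measured markers of the list summed to 24.6 to 29.7 CPM in WT against 77.0 to 113 CPM in *psap* KO, most of it from *srgn*, *csf3r* and *mmp9*. Of 7 tested B and T lymphocyte markers 6 (85.7%) were higher and 1 did not pass, and that list summed to 6.28 to 10.4 and 34.6 to 67.0 CPM. The largest part of its sum in *psap* KO came from *ccr9a*, at 18.7 to 33.1 CPM. No measured marker of either list was at 0 in all libraries. Which cells express these markers here, macrophages among them, and their part in the *ptprc* level were not tested.

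*mpeg1.1* (ENSDARG00000055290, chromosome 8, 29710110 to 29713621, minus strand) encodes a pore-forming protein of phagosomes, and its promoter is widely used to label zebrafish macrophages and microglia. Its WT libraries were at 11.8, 10.6, 11.4 and 12.4 CPM, and its *psap* KO libraries at 48.9, 52.4, 64.1 and 74.8 CPM. WT pools hardly varied, whereas the highest *psap* KO pool had 1.53 times the level of the lowest. The log2 fold change was 2.38 (SE 0.13), or 2.25 without *psap* KO replicate 4. Its paralog *mpeg1.2* was much lower, at 0.302 CPM in WT and 2.46 CPM in *psap* KO on average, with a log2 fold change of 2.97 (SE 0.416, adjusted p = 0.00012, edgeR). How reads that match both paralogs were counted is not given in the sources used here.

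*mfap4* (ENSDARG00000090783, chromosome 1, 59090583 to 59092056, plus strand) encodes a fibrinogen-related protein whose promoter likewise drives macrophage reporters in zebrafish. It was at 0.594, 0.607, 0.968 and 0.698 CPM in the WT and at 2.23, 1.76, 1.6 and 3.94 CPM in the *psap* KO libraries. These are few reads, 57 in all WT and 216 in all *psap* KO libraries, and *psap* KO replicate 4 alone stands out. The log2 fold change was 1.72 (SE 0.34) with that library and 1.35 without it. The gene sits in an array of 17 annotated copies on the chromosome, of which 6 had counts and 4 were tested. The other 3 tested copies, which were looked at after their values were seen, had log2 fold changes of -0.60, -0.14 and 0.21 (adjusted p = 0.26, 0.85 and 0.76, edgeR). Summed over the array, the level was 3.13 to 4.18 CPM in WT against 3.79 to 8.08 CPM in *psap* KO, and the groups overlapped. How reads that match several near-identical copies were counted, and whether strand was used, is not given in the sources used here. The value of this single copy is therefore uncertain.

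*p2ry12* (ENSDARG00000069945, chromosome 15, 1116664 to 1120421, plus strand) encodes the ADP receptor by which microglia sense damaged cells, and in mammals it is the classic gene of the resting state. It was at 0.594, 0.675, 0.704 and 0.465 CPM in WT and at 5.18, 3.96, 3.89 and 2.57 CPM in *psap* KO libraries, from 47 and 330 reads. Its level in whole-brain RNA was thus higher in every *psap* KO pool, which does not give its level per macrophage. Relative to *mpeg1.1* it overlapped between the genotypes, with a log2 difference of 0.12. Its log2 fold change was 2.66 (SE 0.27) and 2.82 without *psap* KO replicate 4. Alone among the 10 genes it was lowest in that replicate, although *marco* was at 44.9 CPM in both *psap* KO replicates 2 and 4. Of its relatives among purinergic receptors, *p2ry14* had a log2 fold change of 2.36 (SE 0.281, adjusted p = 3.6e-05) and *p2ry1* of 1.03 (SE 0.0971, adjusted p = 5.7e-06, edgeR). *p2ry1* went from 10.2 ± 0.707 to 20.7 ± 1.85 CPM.

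*marco* (ENSDARG00000059294, chromosome 9, 795609 to 813693, minus strand) encodes a class A scavenger receptor that binds bacteria and modified lipoproteins. WT libraries were at 3.78, 1.96, 1.94 and 3.21 CPM, and *psap* KO libraries at 60.6, 44.9, 51 and 44.9 CPM. The lowest KO pool was far above the highest WT pool (11.9 times). The log2 fold change was 4.2 (SE 0.20), and 4.25 without *psap* KO replicate 4. The other scavenger receptors of its family had smaller fold changes. *scara5*, a ferritin receptor in mammals, was at 2.04 CPM in WT and 3.20 CPM in *psap* KO (log2 fold change 0.65, SE 0.192, adjusted p = 0.017). *colec12*, a collectin with a scavenger domain, went from 23.7 to 30.7 CPM (0.37, SE 0.104, adjusted p = 0.012), and *scara3* did not pass (-0.11, adjusted p = 0.60, edgeR).

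*havcr1* (ENSDARG00000040178, chromosome 21, 29100972 to 29110607, minus strand) encodes a TIM family receptor that in mammals binds phosphatidylserine on dying cells. It was at 4.1, 3.78, 2.51 and 5.63 CPM in WT and at 46.5, 38.2, 36.3 and 47.5 CPM in *psap* KO. The fold change was even across the KO pools, with a log2 value of 3.39 (SE 0.20) and of 3.33 without *psap* KO replicate 4. It lies between 2 other TIM genes on the same strand, and these flanking genes went in opposite directions. *havcr2* (29112053 to 29119560), which encodes TIM-3, rose from 1.82 ± 0.691 to 7.51 ± 0.947 CPM (log2 fold change 2.06, SE 0.229, adjusted p = 2.1e-05). *timd4* (29090652 to 29100110), an engulfment receptor of resident macrophages in mammals, fell from 35 ± 4.39 to 23.3 ± 4.49 CPM (log2 fold change -0.59, SE 0.138, adjusted p = 0.0052, edgeR). No *psap* KO library reached the lowest WT library of *timd4* (28.1 against 28.5 CPM).

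*gpnmb* (ENSDARG00000062688, chromosome 19, 20247435 to 20270207, minus strand) encodes a transmembrane glycoprotein of late endosomes and lysosomes that in mammals marks lipid-laden macrophages. It was at 0.864, 0.540, 0.836 and 0.744 CPM in WT and at 30.4, 67.1, 37.8 and 71.9 CPM in *psap* KO. In reads this is 59 in all WT against 4726 in all *psap* KO libraries. The log2 fold change was 6.09 (SE 0.41), rank 14 of the tested genes, and 5.89 without *psap* KO replicate 4. The 4 KO pools fell into a lower pair (replicates 1 and 3) and a higher pair (replicates 2 and 4), with a ratio of 2.37 between highest and lowest. The related melanosome genes *pmela* and *pmelb*, which like *gpnmb* are also expressed in pigment cells, had log2 fold changes of 2.95 (SE 0.223, adjusted p = 9.1e-07) and 0.90 (SE 0.297, adjusted p = 0.029, edgeR). Of 7 tested pigment cell markers 4 (these 2 genes, *tyrp1b* and *sox10*) were higher (57.1%, against 22.3% of all genes) and 3 did not pass. The list summed to 39.1 to 44.8 CPM in WT against 60.8 to 73.5 CPM in *psap* KO. The largest part was *sox10*, also an oligodendrocyte gene, at 23.7 CPM in WT and 33.3 CPM in *psap* KO on average. The part of pigment cells in the *gpnmb* level was not tested.

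*cd83* (ENSDARG00000079553, chromosome 16, 38394371 to 38397359, plus strand) encodes a surface protein of mature dendritic cells and activated microglia in mammals. It had 1, 0, 2 and 1 reads in the WT libraries and 107, 160, 114 and 184 reads in the *psap* KO libraries, the latter 5.96, 7.04, 5.54 and 7.05 CPM. It was therefore close to undetected in WT brains and of nearly the same level in all 4 KO pools. The ratio of the summed read rates was 125, with an exact 95% interval of 48.7 to 462 that covers counting error only. The fitted log2 fold change was 6.80 (SE 0.33), rank 6 of the tested genes, and 6.75 without *psap* KO replicate 4, but with 4 WT reads in all it depends on the prior count of the fit.

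*lgals3bpb* (ENSDARG00000040528, chromosome 3, 57741933 to 57744323, minus strand) encodes a secreted scavenger-domain protein that binds galectins. It was at 40.1, 35.1, 34.6 and 46.9 CPM in WT and at 476, 390, 419 and 523 CPM in *psap* KO. The mean went from 39.2 ± 5.71 to 452 ± 59.3 CPM, a log2 fold change of 3.53 (SE 0.12), and of 3.45 without *psap* KO replicate 4. Its paralog *lgals3bpa* was at 0.674 ± 0.168 CPM in WT and 7.64 ± 1.73 CPM in *psap* KO (log2 fold change 3.46, SE 0.238, adjusted p = 4.2e-07, edgeR).

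*spp1* (ENSDARG00000044276, chromosome 10, 15120711 to 15128771, minus strand) encodes osteopontin, a secreted protein of bone and of activated macrophages. It had 1, 7, 5 and 2 reads in the WT libraries (0.054, 0.472, 0.220 and 0.093 CPM) and 4, 35, 43 and 86 reads in the *psap* KO libraries (0.223, 1.54, 2.09 and 3.29 CPM). *psap* KO replicate 1 lay within the WT range, and the highest KO pool had 14.8 times the level of the lowest. The ratio of the summed read rates was 9.94 (exact 95% interval 5.86 to 18.2, counting error only), a spread between pools that this interval leaves out. The log2 ratio of the mean CPM was 3.09, and leaving out single libraries took it from 2.61 (without *psap* KO replicate 4) to 3.87 (without WT replicate 2). Of 7 tested bone and cartilage markers 2 were higher and 2 lower (28.6% each, against 22.3% and 18.5% of all genes). The list summed to 64.3 to 75.6 CPM in WT against 76.6 to 80.7 CPM in *psap* KO. Most of the sum came from *alpl* (33.3 and 27.5 CPM on average in WT and *psap* KO) and *sox9a* (27.9 and 39.7 CPM). The part of bone and cartilage in the *spp1* level was not tested.

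The *psap* KO pools did not rank the same way for each gene. Replicate 4 was the highest of the 4 for 8 genes, and replicate 1 for *p2ry12* and *marco*. The lowest pool was replicate 1, 2 or 3 for 3 genes each and replicate 4 for *p2ry12*. *marco*, counted under replicate 2, was at nearly the same level in replicate 4. The spread within *psap* KO was smallest for *cd83* (highest over lowest 1.27), *havcr1* (1.31) and *ptprc* (1.31) and largest for *spp1*, *mfap4* (2.46), *gpnmb* and *p2ry12* (2.02). *gpnmb* and *p2ry12* were out of step between pools, with 5.87, 16.9, 9.72 and 28.0 CPM of *gpnmb* for each CPM of *p2ry12* in *psap* KO replicates 1 to 4. In WT replicates 1 to 4 this ratio was 1.45, 0.80, 1.19 and 1.6.

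**Figure D2:**
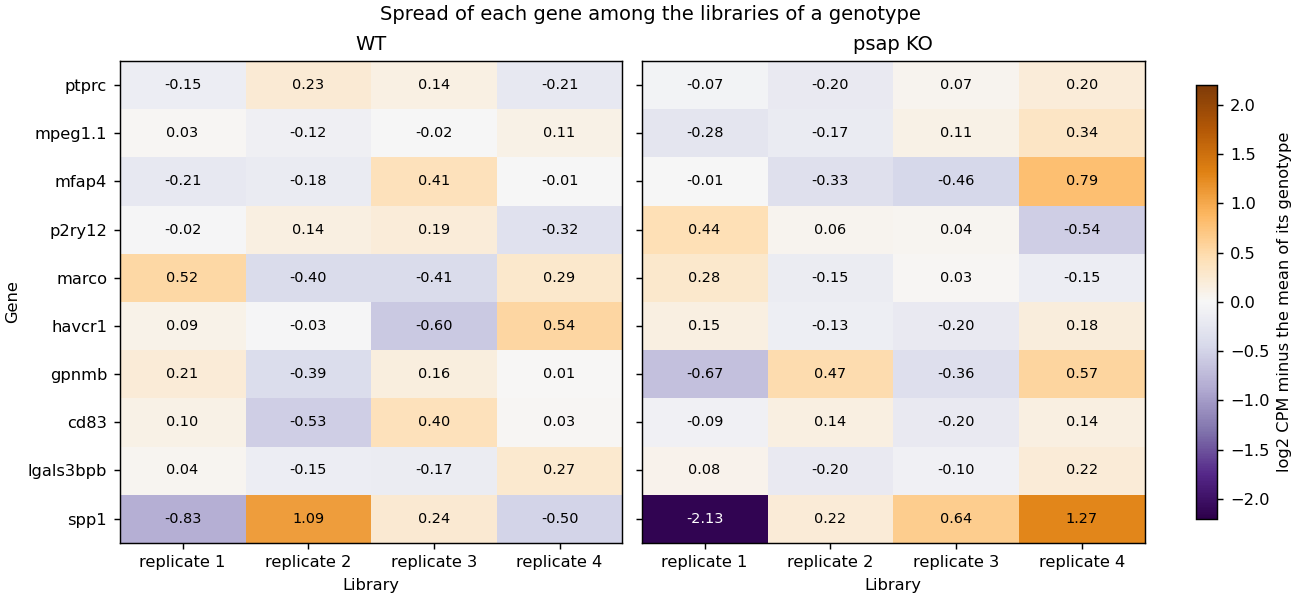
Log2 CPM of each gene (rows) in each library (columns) minus the mean of the 4 libraries of its genotype, WT on the left and *psap* KO on the right; orange is above and purple below the mean. Among *psap* KO libraries *p2ry12* is lowest in replicate 4 (-0.54), where *mfap4* (0.79), *gpnmb* (0.57) and *spp1* (1.27) are highest.

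To set the activation genes against the amount of macrophage RNA, each gene was divided by *mpeg1.1* in the same library. Since *mpeg1.1* is itself a chosen gene, this is again a description, and heights are compared between libraries and not between genes. The result depends on this reference, whose log2 fold change was 2.38. The tested genes of the identity list further below ran from -0.04 to 3.43. *havcr1* (3.39) lay near the top of that range and *lgals3bpb* (3.53) just above it. No other single gene was used as the reference for the whole set. *ptprc* was at 82.0 to 131 CPM per 100 CPM of *mpeg1.1* in WT and 74.5 to 94.8 in *psap* KO, *mfap4* at 5.05 to 8.49 and 2.50 to 5.28, and *p2ry12* at 3.75 to 6.37 and 3.43 to 10.6. The genotypes overlapped for all 3 identity genes. The log2 differences, *psap* KO minus WT, were -0.32, -0.81 and 0.12.

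The uptake receptors and 3 of the 4 activation genes stood higher per *mpeg1.1* in every *psap* KO library than in any WT library. The share of all genes that do so on this scale was not computed, and nothing is read from this count. *marco* was at 17 to 32.1 in WT and 60.1 to 124 in *psap* KO, and *havcr1* at 22 to 45.3 and 56.6 to 95. *gpnmb* was at 5.10 to 7.34 and 59.0 to 128, *cd83* at 0 to 0.772 and 8.64 to 13.4, and *lgals3bpb* at 303 to 378 and 654 to 972. Their log2 differences were 1.86 for *marco*, 1.06 for *havcr1*, 3.52 for *gpnmb*, 3.17 for *cd83* and 1.18 for *lgals3bpb*. The value of *cd83* is held down by the prior count of 2, given its 0 to 2 reads in each WT library. The mean ratios with no prior count gave a log2 value of 4.77 for *cd83* and of 3.74 for *gpnmb*, so the order of the pair depends on that choice. The genotypes overlapped for *spp1*, with 0.459 to 4.46 in WT and 0.455 to 4.41 in *psap* KO.

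**Figure D3:**
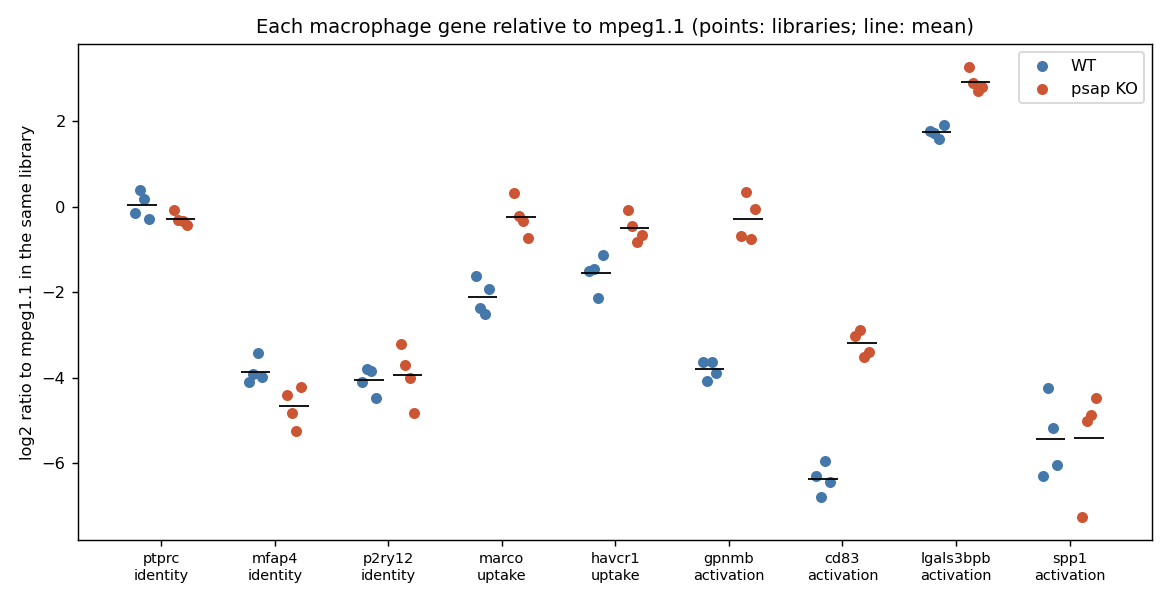
Log2 ratio of each gene to *mpeg1.1* in the same library (y axis, log2 CPM with a prior count of 2; blue WT, red *psap* KO, points are libraries, lines are means). The genotypes overlap for *ptprc*, *mfap4*, *p2ry12* and *spp1* and are apart for *marco*, *havcr1*, *gpnmb*, *cd83* and *lgals3bpb*, and heights of different genes are not comparable because gene length was not used.

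The same contrast was summed up per library as the mean log2 CPM of the 4 activation genes minus that of the 4 identity genes. It was -1.53, -1.51, -1.52 and -1.43 in WT replicates 1 to 4 and 0.00, 1.05, 0.79 and 1.09 in *psap* KO replicates 1 to 4. The WT values were nearly identical, although *cd83* and *spp1* had only 0 to 7 reads in each WT library. On the log2 scale *spp1* alone varied from -0.83 to 1.09 around its WT mean. *psap* KO replicate 1, which had the least *gpnmb* and *spp1*, was the lowest of the KO pools. The means were -1.5 ± 0.04 and 0.73 ± 0.5 (SD, n = 4), a difference of 2.23. With *lgals3bpb* and *havcr1* counted as identity genes it was 2.04. The activation and identity genes were chosen on this contrast, and *cd83* and *spp1* were over the count minimum of the filter in no WT library. The difference is therefore a description, and nothing is read from its size.

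Most other tested genes of macrophage identity rose too. Their list, like those that follow, was written with earlier results of these data known. Of 29 genes of a list without the 10 genes above, 24 were measured and 23 tested. Among the tested, 22 (95.7%, against 22.3% of all genes) rose, none fell and 1 did not pass. Their median log2 fold change was 2.29 against 0.02 over all genes. The receptor genes *cx3cr1*, *p2ry13*, *gpr34a* and *gpr34b* had no single match by symbol and so no value. *timd4*, which is not in this list, fell (-0.59, adjusted p = 0.0052, edgeR). No gene of the list was lower in edgeR at an unadjusted p under 0.05 either, and DESeq2 and limma-voom also called 0 lower. *inpp5d*, an inositol phosphatase of blood cells, rose from 12.5 ± 0.986 to 73.1 ± 8.35 CPM (2.55, SE 0.0993, adjusted p = 8.3e-09), and *itgb2*, the β chain of leukocyte integrins, from 15.9 ± 1.61 to 88.6 ± 11.8 CPM (2.48, SE 0.107, adjusted p = 1.5e-08). *spi1b*, which encodes the myeloid factor PU.1, rose by 3.22 on the log2 scale (SE 0.151, adjusted p = 3e-08), and the interleukin 10 receptor gene *il10ra* by 3.31 (SE 0.17, adjusted p = 5.1e-08, edgeR). The gene that did not pass was *mafba*, which encodes a transcription factor found in macrophages and elsewhere (-0.04, adjusted p = 0.75). Of 10 tested proliferation genes 1, *mcm5*, rose (10%, against 22.3% of all genes). The sum of that list was 94.8 to 108 CPM in WT against 87.4 to 143 CPM in *psap* KO.

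Genes of the lipid-associated macrophage state, to which mammalian *GPNMB* and *SPP1* belong, also rose for the most part. Of 30 tested genes 24 (80%, against 22.3% of all genes) rose, none fell and 6 did not pass, with a median of 1.21. At an unadjusted p under 0.05 edgeR had 2 of the 30 lower, *cd36* and *igf1*, DESeq2 called 1 lower and limma-voom 0. These 2 genes, *cd9a*, *cd9b*, *acp5a* and *abcg1* were the 6 that did not pass. The smallest rise was that of *lgals3a* (0.21, adjusted p = 0.042, edgeR). The part of macrophages in the whole-brain level of the listed genes was not tested. *apoeb*, an apolipoprotein E gene, rose from 138 ± 26.9 to 1460 ± 111 CPM (3.40, SE 0.132, adjusted p = 1.5e-08). *apoc1*, another apolipoprotein, had a log2 fold change of 2.51 (adjusted p = 6.7e-09). The lysosomal protease gene *ctsz* rose by 3.13 on the log2 scale (SE 0.115, adjusted p = 6.7e-09) and the late endosomal tetraspanin *cd63* by 1.36 (SE 0.0685, adjusted p = 4.5e-08, edgeR).

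More genes of the inflammatory list, which also holds inhibitors of signalling, rose than fell. Of 15 tested 9 rose (60%, against 22.3% of all genes), 1 fell (6.67%, against 18.5%) and 5 did not pass, with a median of 1.34. *tnfb*, a tumor necrosis factor gene, rose from 0.376 ± 0.212 to 5.46 ± 0.783 CPM (3.81, SE 0.302, adjusted p = 1.4e-06), and the cytokine signalling inhibitor *socs3b* from 7.03 to 49.2 CPM (2.80, adjusted p = 2e-07). The NF-κB subunits *nfkb2* and *relb* rose by 1.79 on the log2 scale (adjusted p = 5.9e-08) and 0.88 (adjusted p = 1.9e-06). The inducible nitric oxide synthase gene *nos2a* fell, from 5.29 ± 1.5 to 2.45 ± 0.643 CPM (-1.13, adjusted p = 0.0039, edgeR).

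Phagocytic and scavenger receptors did not move as a group. Of 25 tested 12 rose (48%, against 22.3% of all genes), 6 fell (24%, against 18.5%) and 7 did not pass, with a median of 0.25. *mrc1b*, a mannose receptor, rose from 34.9 ± 1.45 to 234 ± 24.7 CPM (2.74, SE 0.0832, adjusted p = 2.7e-09), and *mertka*, a kinase receptor for bridged phosphatidylserine, from 18.8 ± 0.562 to 50.1 ± 5.37 CPM (1.41, adjusted p = 1.8e-07). *adgrb1b*, an engulfment receptor with high expression in neurons in mammals, fell from 284 ± 39.9 to 135 ± 9.90 CPM (-1.07, SE 0.0967, adjusted p = 3.8e-06, edgeR). Neuronal markers were lower in these libraries too (10 of 12 tested, 83.3%), and their part in the *adgrb1b* level was not tested.

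Genes of antigen presentation and co-stimulation, the setting in which mammalian *CD83* is best known, mostly rose. Of 16 tested 13 rose (81.2%, against 22.3% of all genes) and 1 fell (6.25%, against 18.5%), with a median of 2.26. *b2m*, the light chain of class I molecules, went from 48.4 ± 4.79 to 293 ± 36.0 CPM (2.6, adjusted p = 8.3e-09), and *cd40*, a co-stimulatory receptor, from 10.4 ± 1.26 to 56.3 ± 3.53 CPM (2.44, adjusted p = 8.3e-09). The cathepsin S genes *ctss2.2* and *ctss2.1*, whose mammalian relative trims the class II chaperone, rose by 3.27 on the log2 scale (adjusted p = 2e-08) and 3.59 (adjusted p = 9.3e-08, edgeR). The gene that fell was *zbtb46* (-0.44), a dendritic cell factor in mammals that endothelium also expresses.

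Galectins, the partners of *lgals3bpb*, and osteopontin receptors gave 11 genes higher, 1 lower and 5 that did not pass out of 17, with a median of 0.65. Higher were 64.7% and lower 5.88%, against 22.3% and 18.5% of all genes. The 4 with the smallest p were all galectins. *lgals9l1* rose from 11.1 ± 2.38 to 228 ± 56.5 CPM (4.35, SE 0.229, adjusted p = 1.2e-06) and *lgals9l3* from 5.93 ± 1.95 to 66.5 ± 3.81 CPM (3.48, adjusted p = 1.4e-07). *lgals2a* and *lgals1l1* had log2 fold changes of 1.66 (adjusted p = 3.9e-07) and 1.93 (adjusted p = 9.3e-06, edgeR). The gene that fell was the integrin *itga9* (-0.59, adjusted p = 0.037), a call that was lost with limma-voom and without WT replicate 1 or without *psap* KO replicate 2, 3 or 4. Of the 11 tested paralogs and family genes of the chosen genes, given above with their nearest member, 9 (81.8%) rose, 1 (*timd4*, 9.09%) fell and 1 (*scara3*) did not pass.

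**Figure D4:**
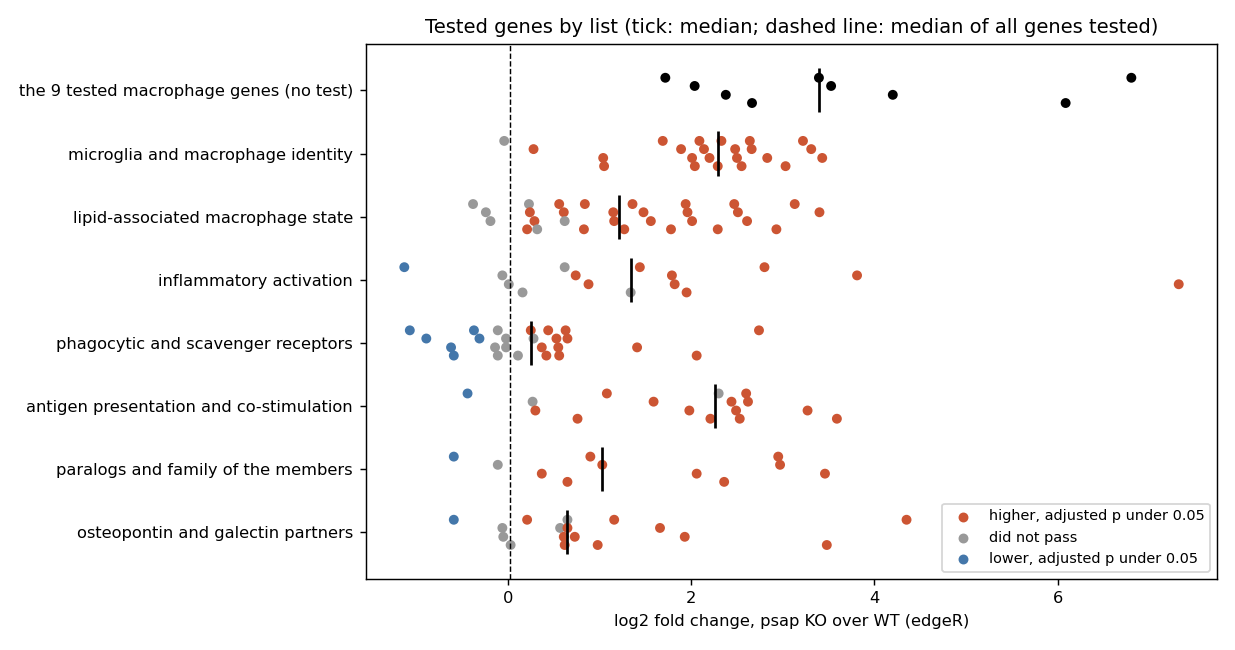
Log2 fold change, *psap* KO over WT (x axis), of each tested gene (point) by list (rows); red is higher and blue lower at an adjusted p under 0.05, grey did not pass, and black marks the 9 tested macrophage genes, which have no test. Ticks are list medians, from 0.25 for phagocytic and scavenger receptors to 2.29 for identity genes, and the dashed line is the median of all genes tested, 0.02.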

How the data were processed

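Raw counts per gene were deposited by the authors, who, per their methods, removed optical duplicates, trimmed reads with cutadapt 1.16, aligned them with STAR 2.6.1b and counted them with featureCounts 1.6.3. The annotation gives positions (other values) and, as deposited, names no genome build. The authors' own comparison (fold changes and p-values from DESeq2 1.22.2), normalized counts and regularized logarithms were not used; only gene identifiers and symbols were read from that sheet.

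The fit used edgeR 4.0.16 in R 4.3.3 with TMM scaling, filterByExpr, a robust quasi-likelihood fit and Benjamini-Hochberg adjustment over 21140 genes (threshold 0.05); 1731 genes were left out by the filter. It was tested on simulated data. CPM used TMM factors, and log2 CPM a prior count of 2. SE is the log2 fold change over the root of F. Alternatives were other scalings, no filter or a minimum mean count of 50, limma-voom (limma 3.58.1), DESeq2 1.42.0, a replicate block and leaving out each library. Counting intervals are exact at 95% and, as RNA reads carry no molecular identifiers here, cover counting error only. The p-values measure the spread between pools of 3 brains.

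The members and lists were chosen with earlier results of these data known. Named are the 10 genes, for each of 7 lists the 4 measured genes with the smallest p, all measured relatives, and the 3 nearest profiles of *gpnmb* and *p2ry12*. Other genes (*mafba*, *cd36*, *igf1*, *cd9a*, *cd9b*, *acp5a*, *abcg1*, *lgals3a*, *nos2a*, *zbtb46*, *itga9*, *mcm5*, *tyrp1b*, *sox10*, *alpl*, *sox9a*, *ccr9a* and the neutrophil markers) were named after their values were seen. Genes with no value are named where they limit a list. A planned promoter search and sequences were not used here.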

Additional observations from a re-analysis of the deposited data

Results flagged for a closer look

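In 74 groups of 4 libraries (37 named genes in each genotype), 2 held a library far from the other 3, and chance gives about 5% of groups. *itgb2* was at 106 CPM in *psap* KO replicate 4 and at 82.3 to 83.5 CPM in the other KO pools. *p2ry1* was at 23.4 CPM in *psap* KO replicate 3 and at 19.5 to 19.9 CPM in the others.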

How the results depend on the processing

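Over all settings 384 values kept their direction and any call or moved little, 30 moved further and 4 changed sign. The sign changes were relative to *mpeg1.1* in the same library, where *ptprc* was at -0.32 and *mfap4* at -0.81, or -0.34 and -0.67 as ratios of means with no prior count, a form chosen after seeing the data. All genes higher numbered 4100 to 5080 and lower 3467 to 4429 over the other settings (main 4720 and 3903). Lower genes of the lipid-associated list numbered 2 with RLE size factors, 1 with DESeq2, 2 with the replicate block and 0 to 1 without single libraries, against 0; those of the osteopontin and galectin list 0 with limma-voom and 0 to 1 without single libraries, against 1. The difference of activation and identity genes was 2.04 with *lgals3bpb* and *havcr1* counted as identity genes, against 2.23. It was 2.6 with a prior count of 0.5, 2.87 without *spp1* (chosen after seeing the data) and 2.11 to 2.47 without single libraries. With DESeq2's normal prior *p2ry12*, *gpnmb* and *cd83* were at 2.25, 4.90 and 4.75, and *cd83* at 7.23 without WT replicate 3. A mean count of 50 left no value for *mfap4*, *p2ry12* and *spp1*. With genotype means taken out, WT and *psap* KO libraries of the same number had correlations of 0.0575 to 0.167, 2 of 4 over 0.1. Those of different numbers had -0.118 to 0.0735, and 5 of 8 libraries correlated best with their own number. Whether the replicate numbers pair the libraries was not tested. The main fit had no block, and the block called 4908 genes higher and 4429 lower. Reads of *cd83*, *spp1*, *p2ry12* and *mfap4* limit what WT levels can show.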

Other observations

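Across the 8 libraries, the 3 genes of 14319 candidates whose log2 CPM profile lay nearest to that of *gpnmb* were *cidec*, a lipid droplet protein gene (root mean squared difference 0.40), *grn1*, a granulin gene (0.73), and *cx32.2*, a connexin gene (0.78). *cidec* had no read in any WT library and was at 2.84 to 5.32 CPM in *psap* KO. Its WT values on the log2 scale are thus set by the prior count of 2, and its nearness to *gpnmb* depends on that choice. *grn1* was at 0.472 to 0.972 CPM in WT and at 20.5 to 154 CPM in *psap* KO, and *cx32.2* went from 0.766 ± 0.416 to 23.0 ± 4.49 CPM (SD, n = 4).

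The profiles nearest to *p2ry12* were those of *sqstm1*, an autophagy receptor gene (0.20; 46.6 ± 0.833 CPM in WT and 280 ± 61.1 in *psap* KO), *dusp22b*, a phosphatase gene (0.22; 1.54 and 7.90 CPM), and *cd40* (0.25). For *gpnmb* as for *p2ry12*, genes with a like difference between the genotypes count as near by this measure.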
